A study of Mus musculus with 8 samples.

Results

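A set of 10 genes of the neuronal cytoskeleton and the growing axon, *Nefl*, *Nefm*, *Nefh*, *Ina*, *Gap43*, *Stmn2*, *Tubb3*, *Mapt*, *Sncg* and *Thy1*, was taken by symbol from the 28432 genes of the count table, and all 10 passed the filter on low counts that left 13891 genes for testing. RNA was sequenced from E15.5 mouse retina in 4 *Lhx2* CKO embryos and 4 control embryos, with both retinas of 1 embryo as a sample. CKO embryos were Lhx2 flox/- and control embryos were Lhx2 flox/+, and embryos of both groups carried 1 Hes1CreERT2 allele and were exposed to tamoxifen, which the dam received by gavage on E11.5 at a dose between 0.15 and 0.2 mg/g. In recombined cells, controls therefore also lost their floxed copy and kept 1 intact *Lhx2* allele, whereas CKO cells kept none. *Hes1* drives the Cre in retinal progenitors, so that neurons carry the deletion where they descend from recombined progenitors. Embryos of both groups also carried 1 allele of a tdTomato reporter of recombination (Rosaai14/+). The study selected recombined embryos by reporter fluorescence at dissection. The embryos came from 3 litters harvested over 2 days, and the litter and day of each sample were not given in the sources used here.

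Neurofilaments are the intermediate filaments of nerve cells. Light, medium and heavy subunits and alpha-internexin co-assemble into the filaments that set the calibre of an axon, while tau and neuron-specific beta-III tubulin build and stabilise its microtubules, and stathmin-2 and GAP-43 act in the growth cone. In the embryonic retina the ganglion cell is the first neuron to form and the one that sends an axon to the brain, so transcripts of this kind are classical readouts of ganglion cells and of other newly born neurons.

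Total counts were between 13955259 and 19099937 reads in CKO samples and between 13143587 and 15063867 in control samples. *Lhx2*, counted over the whole gene and so including exons outside the deleted part, ranged between 2557 and 2868 normalized counts in CKO retinas and between 3082 and 3631 in control retinas. This comparison checks neither the deletion nor the labels. In a principal component analysis the first component (49.4% of the variance) separated the genotypes, and the second (17.6%) set CKO replicate 1 and control replicate 3 at opposite ends, with scores of 28.5 and -22.5. CKO replicate 1 and control replicates 1 and 4 were female by *Xist* and Y-linked reads. Retinal progenitor markers fell in 9 of the 12 genes tested, where 4.97% of all genes tested fell by edgeR at the cutoff given below.

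Whether reads can be assigned to these genes depends on their sequence, since the libraries were read from 1 end over 50 bases and kept no strand. The final coding bases of *Tubb3* (chr8:123421605-123421679 of GRCm38, plus strand, last coding exon) are shown with those of *Tubb2b* (chr13:34127474-34127533, minus strand) and *Tubb5* (chr17:35834985-35835041, minus strand), the beta-tubulins it is set against below, because this stretch encodes the tail in which beta-tubulins differ most. Sequences are from GENCODE M21, are written in the direction of the transcript up to the codon before the stop, and capitals mark bases that differ from, or could not be aligned to, *Tubb3*.

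Tubb3: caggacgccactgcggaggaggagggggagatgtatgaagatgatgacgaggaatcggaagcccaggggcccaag
Tubb2b: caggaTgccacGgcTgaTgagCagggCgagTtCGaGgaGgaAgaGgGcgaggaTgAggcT
Tubb5: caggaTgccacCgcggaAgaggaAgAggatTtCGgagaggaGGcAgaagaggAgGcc

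Over the whole coding sequence, *Tubb3* was 83.6% identical to *Tubb2b*, with a longest identical run of 45 bases, and 81.4% identical to *Tubb5*, with a longest identical run of 26 bases. No window of 50 bases from the *Tubb3* transcripts was shared with any other gene. The same held for *Nefh*, *Gap43*, *Mapt*, *Sncg* and *Thy1*, and 0.893% of the windows of *Stmn2* were shared. *Nefl* (chromosome 14, 68083863 to 68089095, plus strand) and *Nefm* (chromosome 14, 68082590 to 68124846, minus strand) were the exception. A long annotated transcript of *Nefm* runs over the first exon of *Nefl* on the other strand, so that 1108 exonic bases, 31.8% of the *Nefl* windows and 18.6% of the *Nefm* windows were common to both. *Ina* (chromosome 19, 47014698 to 47025327, plus strand) shared 456 exonic bases and 12.8% of its windows with *Nt5c2* on the other strand. Reads in these stretches cannot be assigned to 1 gene without strand. *Nt5c2* was itself far lower than *Ina*, with 1395 to 1458 normalized counts in CKO retinas and 1280 to 1466 in control retinas (log2FC 0.03, edgeR adjusted p = 0.68).

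Promoter sequence from RefSeq (GRCm38.p6) was matched for 3 of the 10 genes, *Ina*, *Tubb3* and *Sncg*. Their log2FC (CKO over control), given below, were 0.41, 0.34 and -0.01, and the bases before the first annotated exon are given so that they can be compared. They cover chr19:47014431-47014680 on the plus strand for *Ina*, chr8:123411303-123411423 on the plus strand for *Tubb3* and chr14:34374790-34374919 on the minus strand for *Sncg*.

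Ina: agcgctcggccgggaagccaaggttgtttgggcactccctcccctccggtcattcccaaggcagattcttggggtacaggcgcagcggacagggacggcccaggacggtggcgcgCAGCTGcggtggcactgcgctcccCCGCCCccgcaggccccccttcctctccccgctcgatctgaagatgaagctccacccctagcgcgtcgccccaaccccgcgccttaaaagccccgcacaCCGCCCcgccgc
Tubb3: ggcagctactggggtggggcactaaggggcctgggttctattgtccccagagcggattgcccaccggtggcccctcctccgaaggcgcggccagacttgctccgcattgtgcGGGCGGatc
Sncg: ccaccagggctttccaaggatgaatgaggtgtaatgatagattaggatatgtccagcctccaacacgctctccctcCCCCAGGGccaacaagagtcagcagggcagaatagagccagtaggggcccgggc

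Capitals mark matches, on either strand, to 6 motifs that were searched. They were the homeodomain core spelled TAATTA, the E-box in its first form, spelled CAGCTG, a further form of the E-box, spelled CAGATG, the core of the EBF site, spelled CCCNNGGG, the TATA box in the form spelled TATAAA, and the GC box, spelled GGGCGG. The *Ina* window held 1 E-box of the first form and 2 GC boxes on the opposite strand, the *Tubb3* window held 1 GC box, and the *Sncg* window held 1 EBF core. None of these matches overlapped another. The windows were 250, 121 and 130 bases long for *Ina*, *Tubb3* and *Sncg*, so their matches cannot be compared directly. Each full promoter had 300 bases. Over these, *Ina* held no further match and *Tubb3* held 2 GC boxes. The full *Sncg* promoter held 1 GC box and 1 E-box of the further form beside its EBF core. None of the 3 full promoters held the homeodomain core, a sequence that LIM-homeodomain proteins can bind. Among 32851 RefSeq promoters of 300 bases, 5.29% held the homeodomain core, 16.3% the first and 17.2% the other form of the E-box, 13.7% the EBF core, 13.6% the TATA box and 35.7% the GC box. These are matches of letters and say nothing of binding.

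The genotype comparison asked whether transcripts of the axonal cytoskeleton changed when *Lhx2* was removed from progenitors. *Nefm*, *Ina* and *Mapt* rose in the CKO, and no member fell. By edgeR's quasi-likelihood test, in a model of genotype alone on TMM-scaled counts, these 3 of 10 members passed a Benjamini-Hochberg adjusted p of 0.001 over all genes tested. Of all 13891 genes tested, 3.64% rose by edgeR at this cutoff and 4.97% fell. The study used the same cutoff with another tool, DESeq2. By DESeq2, 7 of the 10 members rose here, where 8.34% of all genes tested did. The median log2FC (CKO over control) of the 10 members was 0.41, against 0.01 over all genes tested. In 8 of the 10, all but *Sncg* and *Thy1*, every CKO sample lay above every control sample, which was so for 15.9% of all genes tested. The same 8 had an edgeR adjusted p below 0.05, where 15.9% of all genes tested rose. In these bulk samples, a larger share of ganglion cells or other neurons in the tissue and more RNA per cell cannot be told apart.

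**Figure D1:**
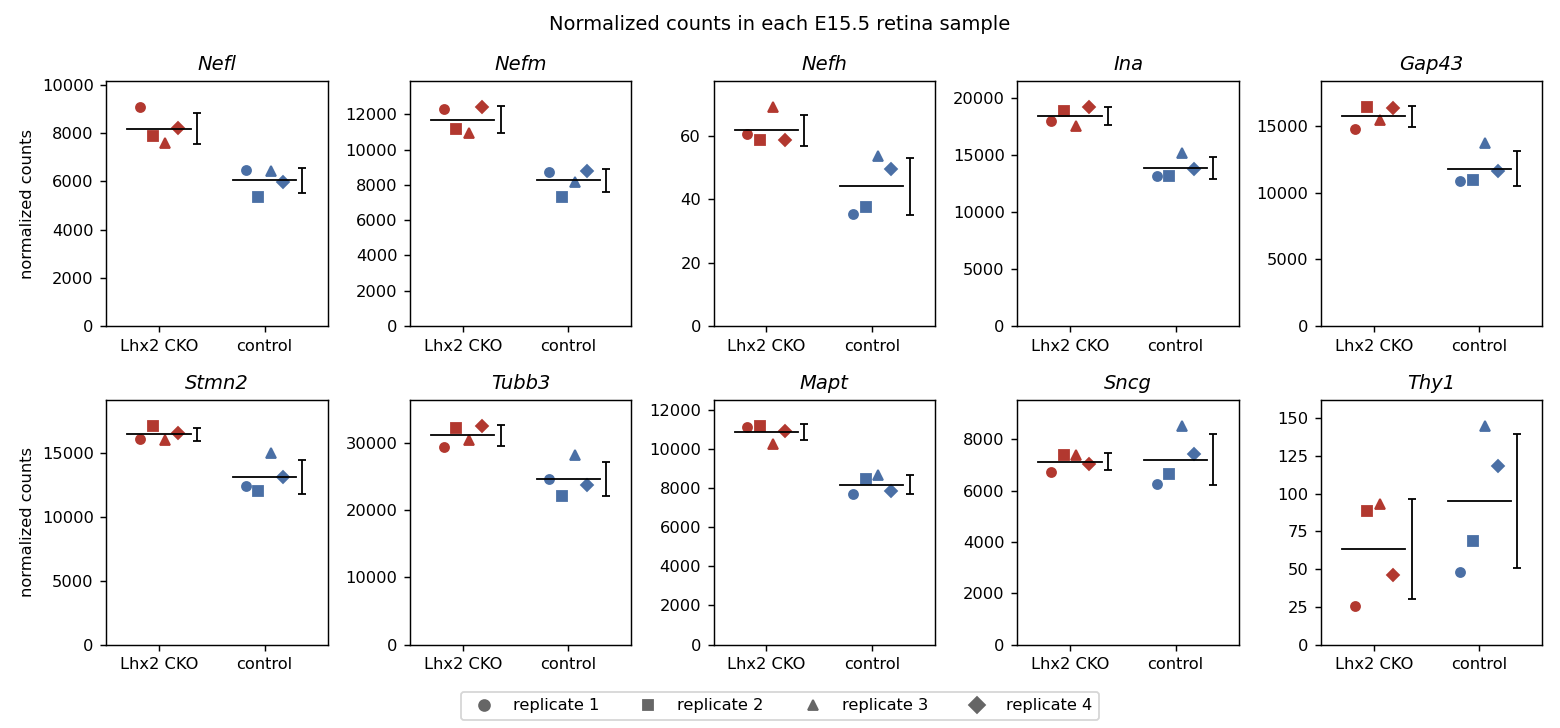
Normalized counts (counts divided by the median-of-ratios size factor of the sample) of each of the 10 genes, with *Lhx2* CKO samples left of control samples, 1 point per sample, a line at the mean and a bar of 1 SD on either side (n = 4 per group). The groups do not overlap in 8 panels, and they overlap for *Sncg* and *Thy1*.

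Among the neurofilament subunits, the medium subunit changed most clearly. *Nefm*, which encodes it, had 12281, 11182, 10923 and 12397 normalized counts in CKO replicates 1 to 4, against 8709, 7329, 8150 and 8808 in control replicates 1 to 4. The lowest CKO sample was thus above the highest control sample by more than either group's SD. *Nefm* averaged 11696 ± 752 in CKO retinas and 8249 ± 678 in control retinas (SD, n = 4 each) and rose 1.42-fold (95% interval 1.27 to 1.59; log2FC 0.51, SE 0.07, edgeR adjusted p = 3.4e-04).

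*Nefl*, which encodes the light subunit, had 9078, 7878, 7594 and 8222 normalized counts in CKO replicates 1 to 4. In control replicates 1 to 4 it had 6466, 5353, 6413 and 5959. CKO replicate 1 was the highest of all, control replicate 2 the lowest, and the groups did not overlap. *Nefl* averaged 1.36-fold more in CKO (95% interval 1.21 to 1.53; log2FC 0.44, SE 0.08) and fell just short of the cutoff (edgeR adjusted p = 0.0012). Since the counting mode was not given, reads in the stretch that *Nefl* and *Nefm* share may have been left out or counted for either gene.

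*Nefh*, the heavy subunit, which in rodents appears later than the others as axons mature, was hardly detected. It had 60.4, 58.6, 68.9 and 58.7 normalized counts in CKO replicates 1 to 4, against 35.2, 37.5, 53.7 and 49.6 in control replicates 1 to 4. The lowest CKO value (58.6) lay little above the highest control value (53.7), with 35 to 76 reads per sample, and *Nefh* did not pass (log2FC 0.49, SE 0.17, edgeR adjusted p = 0.046).

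*Ina*, which encodes alpha-internexin, the neuronal intermediate filament protein that precedes the neurofilament triplet in development, was the most abundant of the filament genes. It had 17958, 18882, 17515 and 19183 normalized counts in CKO replicates 1 to 4, against 13196, 13194, 15217 and 13811 in control replicates 1 to 4. Control replicate 3 stood highest in its group but below every CKO sample. *Ina* averaged 18384 ± 779 in CKO retinas and 13855 ± 954 in control retinas (SD, n = 4 each) and rose 1.33-fold (95% interval 1.21 to 1.46; log2FC 0.41, SE 0.06, edgeR adjusted p = 4.0e-04).

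Of the microtubule genes among the members, only that encoding tau passed the cutoff by edgeR. The 95% intervals of *Tubb3* and *Stmn2*, given below, overlapped that of *Mapt*, and differences between these genes were not tested. *Mapt* (chromosome 11, 104231390 to 104332090) had 11119, 11194, 10251 and 10928 normalized counts in CKO replicates 1 to 4, against 7725, 8479, 8695 and 7854 in control replicates 1 to 4. Its groups were tight and far apart. *Mapt* averaged 10873 ± 429 in CKO retinas and 8188 ± 472 in control retinas (SD, n = 4 each) and rose 1.33-fold (95% interval 1.22 to 1.46; log2FC 0.41, SE 0.06, edgeR adjusted p = 3.5e-04).

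*Tubb3*, the neuron-specific beta-tubulin recognised by the TUJ1 antibody, was the most abundant member, with 29399, 32263, 30503 and 32627 normalized counts in CKO replicates 1 to 4, against 24684, 22199, 28254 and 23722 in control replicates 1 to 4. Control replicate 3 lay just under the lowest CKO sample and well over the other 3 controls. *Tubb3* did not pass (1.26-fold, 95% interval 1.13 to 1.41; log2FC 0.34, SE 0.07, edgeR adjusted p = 0.0039).

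*Stmn2* (chromosome 3, 8509360 to 8561606), whose product stathmin-2 (SCG10) regulates microtubule turnover in growth cones, had the same shape. It had 16090, 17109, 16003 and 16540 normalized counts in CKO replicates 1 to 4, against 12398, 11998, 14974 and 13135 in control replicates 1 to 4. The CKO samples agreed closely (SD 507), and control replicate 3 again lay nearest to them. *Stmn2* did not pass (95% interval of the fold 1.13 to 1.39; log2FC 0.33, SE 0.07, edgeR adjusted p = 0.0037).

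*Gap43* (chromosome 16, 42248442 to 42340651, minus strand), which encodes the growth-associated protein of the growth cone membrane, had 14743, 16407, 15422 and 16343 normalized counts in CKO replicates 1 to 4, against 10876, 10980, 13705 and 11655 in control replicates 1 to 4. Here too the groups were apart, with control replicate 3 the highest control. *Gap43* was just short of the cutoff (1.33-fold, 95% interval 1.19 to 1.5; log2FC 0.42, SE 0.07, edgeR adjusted p = 0.0015).

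The last pair of genes, both used as ganglion cell markers in the mature retina, did not follow the others. *Sncg* (chromosome 14, 34370274 to 34374789, minus strand), which encodes gamma-synuclein, had 6711, 7400, 7376 and 7033 normalized counts in CKO replicates 1 to 4, against 6262, 6641, 8531 and 7426 in control replicates 1 to 4. The CKO samples all lay within the control range, and the interval of the log2FC reached from -0.20 to 0.17 (log2FC -0.01, edgeR adjusted p = 0.91). This interval does not reach the log2FC of *Nefm* (0.51), *Ina* (0.41) or *Mapt* (0.41), but the difference between *Sncg* and those genes was not itself tested. The sign of this value depended on single samples and on the length correction described below.

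*Thy1* (chromosome 9, 44043384 to 44048579), which encodes the glycoprotein that marks ganglion cells in the adult rodent retina, was scarce at E15.5. It had 25.4, 88.7, 93.0 and 45.9 normalized counts in CKO replicates 1 to 4, against 48.3, 68.7, 145 and 118 in control replicates 1 to 4. Both groups spread widely and overlapped, and *Thy1* did not pass (log2FC -0.59, SE 0.40, edgeR adjusted p = 0.28). With 32 to 127 reads per sample, the 95% interval of its log2FC ran from -1.48 to 0.29, which includes both a fall and a small rise. The log2FC of *Thy1* lay between -0.84 (with embryo sex as a covariate) and -0.05 (without control replicate 3 and CKO replicate 1) over 19 alternatives, with -0.32 without CKO replicate 1 and -0.33 without control replicate 3.

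**Figure D2:**
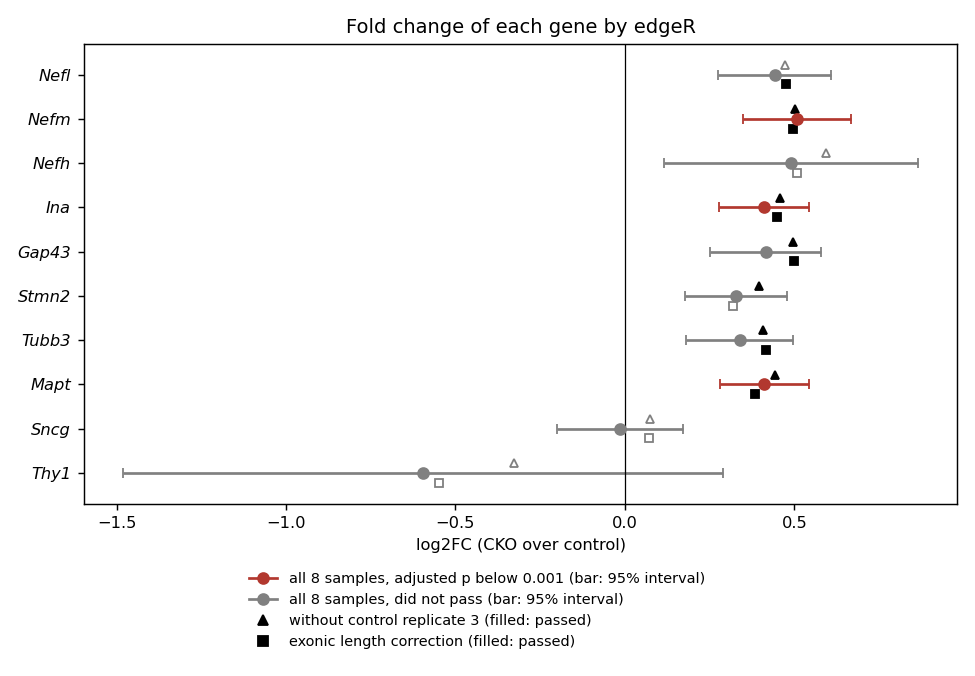
Log2FC (CKO over control) of each gene by edgeR. Circles with 95% intervals are from all 8 samples (red where the adjusted p was below 0.001), triangles are without control replicate 3 and squares are with the exonic length correction, filled where the gene passed; 8 genes lie between 0.33 and 0.51, with *Sncg* at -0.01 and *Thy1* at -0.59.

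Per kilobase of exonic length, taken over all annotated exons of a gene, the members fell into an abundant and a scarce set. This length can exceed that of the transcripts present, since for *Nefm* it includes the long transcript over *Nefl*. The order per kb depends on it. *Tubb3* was first in both genotypes, with 16701 ± 812 normalized counts per kb in CKO retinas and 13231 ± 1377 in control retinas (SD, n = 4 each). *Gap43* (10327 ± 523 in CKO, 7751 ± 862 in control) and *Sncg* (8368 ± 382 in CKO, 8468 ± 1176 in control) came next, and their order differed between the genotypes. In control retinas this pair overlapped, whereas in CKO retinas the lowest *Gap43* sample, at 9681 per kb, was above the highest *Sncg* sample, at 8685. *Ina*, *Stmn2*, *Nefl*, *Nefm* and *Mapt* followed in this order in both genotypes, each without overlap with its neighbours within a genotype, down to 1444 ± 57.0 per kb for *Mapt* in CKO and 1087 ± 62.7 in control. *Thy1* (21.1 ± 11 in CKO, 31.8 ± 14.8 in control) and *Nefh* (15.4 ± 1.23 in CKO, 11 ± 2.26 in control) were lower by far, and overlapped each other in CKO retinas but not in control retinas. The 10 genes together took 0.774, 0.788, 0.758 and 0.797% of all reads in CKO replicates 1 to 4, against 0.597, 0.575, 0.694 and 0.607% in control replicates 1 to 4.

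Control replicate 3 bears on several of these calls. It was the highest control in 8 of the 10 genes, all but *Nefl* and *Nefm*, with a median deviation of 0.197 (log2) from the control mean. Its deviation over all genes tested went with exonic length, at 0.147 for genes under 1.5 kb, 0.0963 for 1.5 to 3 kb, 0.0248 for 3 to 6 kb and -0.0873 for longer genes. The members did not all follow their length. *Sncg* (852 exonic bases), *Gap43* (1523) and *Tubb3* (1868) deviated by 0.252, 0.222 and 0.199 in control replicate 3. However, *Nefh* (3994) deviated by 0.302, *Stmn2* (5602) by 0.195 and *Mapt* (7531) by 0.0884, all above their class of annotated length. CKO replicate 1 had deviations of -0.0813 in the shortest and -0.009 in the longest genes. Without control replicate 3, 6 members passed by edgeR (*Nefm*, *Ina*, *Gap43*, *Stmn2*, *Tubb3* and *Mapt*), where 5.09% of all genes tested rose. Without control replicate 3 and CKO replicate 1, a choice made after seeing the data, 7 passed, against 7.62% of all genes. With a correction for exonic length, also chosen after seeing the data, 6 passed (*Nefl*, *Nefm*, *Ina*, *Gap43*, *Tubb3* and *Mapt*), against 4.61% of all genes. The part of RNA quality or library preparation in this pattern was not tested.

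**Figure D3:**
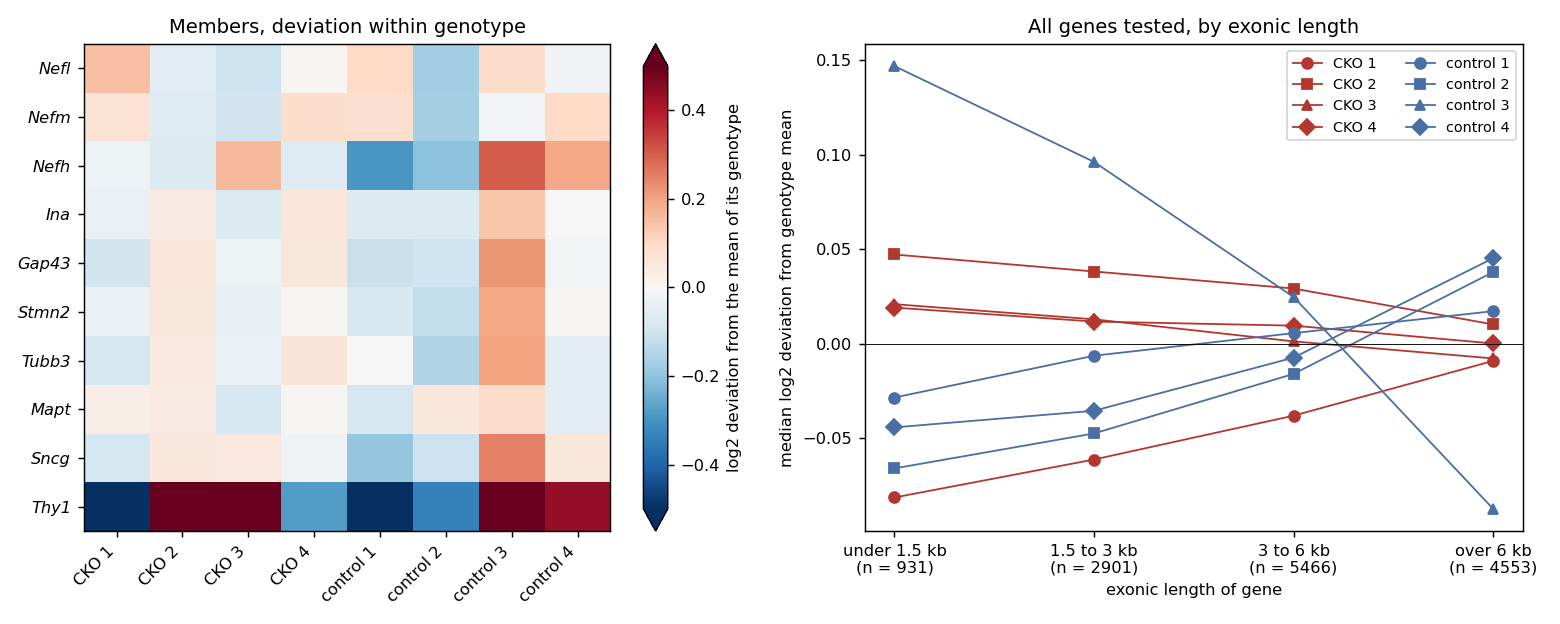
Left, log2 deviation of each gene in each sample from the mean of its genotype (colour, with values beyond 0.5 on either side shown in the end colours, as for *Thy1*), CKO samples left of control samples. Right, median of the same deviation over all genes tested in 4 classes of exonic length, 1 line per sample; control replicate 3 runs from 0.147 in the shortest to -0.0873 in the longest class.

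The calls also rested on the other samples and on the tool. Only *Nefm* passed without CKO replicate 2 or without control replicate 4, *Nefm* and *Mapt* passed without CKO replicate 3, and none of the 10 did without CKO replicate 4, control replicate 1 or control replicate 2, whereas *Nefm*, *Ina* and *Mapt* passed without CKO replicate 1. Fewer genes passed in these fits in general, since 2.11% of all genes tested rose without CKO replicate 2, 2.25% without control replicate 4, 2.48% without CKO replicate 3, 1.91% without CKO replicate 4, 2.01% without control replicate 1, 2.18% without control replicate 2 and 3.17% without CKO replicate 1. The log2FC moved little. Over 19 alternatives, the lowest and highest log2FC were 0.46 and 0.55 for *Nefm*, 0.38 and 0.46 for *Ina* and 0.38 and 0.44 for *Mapt*, and their adjusted p never exceeded 0.0024. DESeq2 called 7 of the 10 (all but *Nefh*, *Sncg* and *Thy1*), where 8.34% of all genes rose by that tool, and limma voom called 5 (*Nefl*, *Nefm*, *Ina*, *Gap43* and *Mapt*), where 3.54% did. With no filter on low counts edgeR called the same 5 as limma voom, where 3.39% of all genes rose.

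Ratios between related genes within a sample do not depend on scaling, and 6 pairs were compared by two-sided exact permutation tests over the 70 splits of 4 and 4 samples, in which the smallest possible p is 0.029. *Tubb3* stood higher relative to *Tubb5*, the beta-tubulin of dividing and many other cells. The *Tubb3*/*Tubb5* ratio was 0.559, 0.568, 0.549 and 0.548 in CKO replicates 1 to 4, against 0.428, 0.421, 0.440 and 0.432 in control replicates 1 to 4 (difference 0.37 on the log2 scale, exact permutation p = 0.029, adjusted over 6 pairs p = 0.086). The control values of this ratio lay close together, and control replicate 3 did not stand near the CKO samples. The *Stmn2*/*Stmn1* ratio, in which *Stmn1* encodes a stathmin abundant in proliferating cells, was 0.651, 0.644, 0.631 and 0.638 in CKO replicates 1 to 4, against 0.537, 0.517, 0.516 and 0.563 in control replicates 1 to 4 (difference 0.27, exact permutation p = 0.029, adjusted p = 0.086). Both ratios were higher in 4 of 4 CKO samples than in any control sample, yet neither passed after adjustment, since 2 of 6 pairs at the smallest p that 4 against 4 samples can give do not reach 0.05. *Tubb5* (log2FC -0.03, edgeR adjusted p = 0.75) and *Stmn1* (log2FC 0.06, edgeR adjusted p = 0.58) did not pass on their own.

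Between the filament subunits, no ratio separated the genotypes. The *Nefm*/*Nefl* ratio lay between 1.35 and 1.51 in CKO retinas and between 1.27 and 1.48 in control retinas (difference 0.07, exact permutation p = 0.26). *Ina*/*Nefl* (difference -0.03, exact permutation p = 0.63) and *Nefh*/*Nefl* (difference 0.07, exact permutation p = 0.71) overlapped as well, and both changed sign when single samples were left out. *Mapt*/*Map2*, tau against the dendritic microtubule protein, lay between 0.923 and 1.01 in CKO retinas and between 0.925 and 1.28 in control retinas (difference -0.12, exact permutation p = 0.37). The highest value was again control replicate 3, and *Map2* itself rose (log2FC 0.53, edgeR adjusted p = 4.9e-04).

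**Figure D4:**
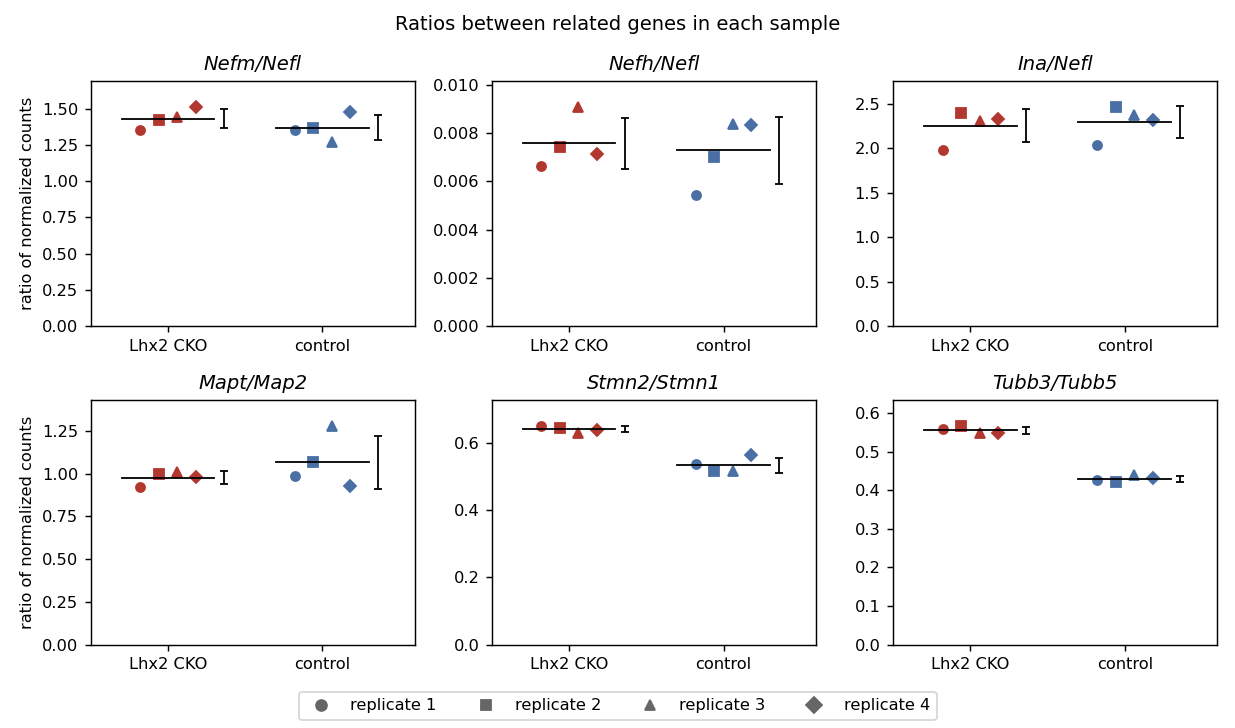
Ratios of normalized counts between related genes in each sample, *Lhx2* CKO left of control, with a line at the mean and a bar of 1 SD on either side (n = 4 per group). *Tubb3*/*Tubb5* (0.548 to 0.568 in CKO, 0.421 to 0.440 in control) and *Stmn2*/*Stmn1* do not overlap between genotypes, and the other 4 pairs do.

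Other genes of the axon rose as well. Of 21 other microtubule-associated and collapsin response proteins, 11 rose and none fell (median log2FC 0.40), among them *Kif5c*, a motor of axonal transport (0.61), *Dclk1*, a doublecortin-like kinase (0.59), and *Dpysl5*, a collapsin response protein (0.45). With 1 sample left out, between 4 (without CKO replicate 4 or control replicate 2) and 12 (without control replicate 3) of them rose, with 5 without CKO replicate 2 or control replicate 1 and 7 without control replicate 4. Of 22 other growth cone and axon membrane genes, 8 rose and none fell (median 0.31), among them the adhesion proteins *Cntn2* (0.72) and *Nfasc* (0.57) and *Nrn1*, which encodes neuritin (0.74). Of this list 13 rose without control replicate 3, and 5 without CKO replicate 2, CKO replicate 4, control replicate 1, control replicate 2 or control replicate 4. *Basp1*, a growth cone protein of the same kind as GAP-43, rose too (0.43). The intermediate filament gene *Vim*, which is expressed in progenitors and glia, rose by 0.72 and was the only one of 7 other filament genes tested to do so. Of 11 other tubulin genes none rose, and *Tubb6* (-1.09), *Tuba1c* (-0.63) and *Tubb4b* (-0.46) fell; with any 1 sample left out, between 0 and 2 fell, with 2 without CKO replicate 1, 1 without CKO replicate 3, CKO replicate 4 or control replicate 3 and 0 without the others, and without control replicate 3, 3 rose. *Tubb2b*, whose coding end is shown above, had a log2FC of 0.45 and was just short of the cutoff (edgeR adjusted p = 0.0010). *Sncb*, which encodes beta-synuclein, rose by 1.04, and it passed as well without control replicate 3 but not with any other sample left out. Over all genes tested the median was 0.01, with 3.64% rising.

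**Figure D5:**
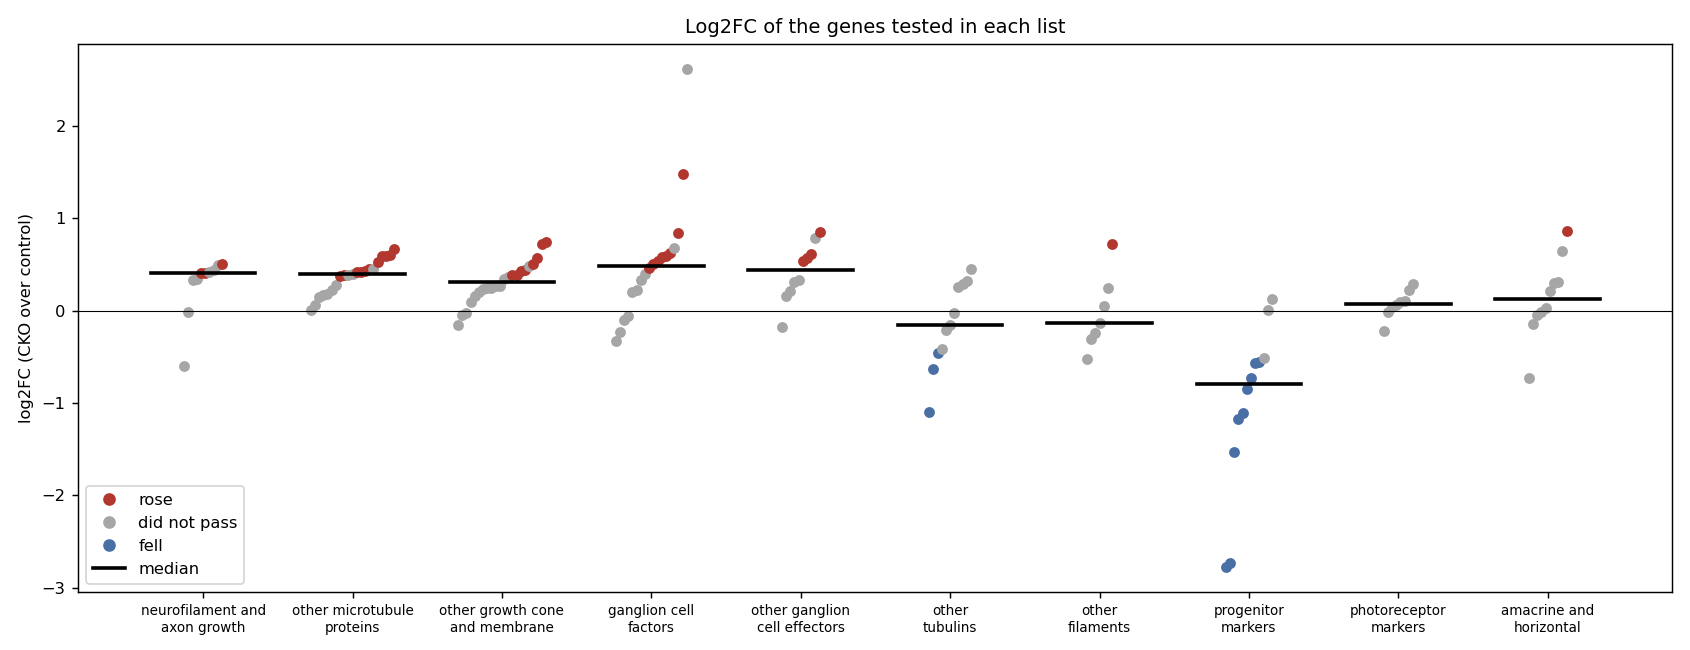
Log2FC (CKO over control) of the genes tested in each list, 1 point per gene (red rose, blue fell, grey did not pass), with a line at the median. The 10 neurofilament and axon growth genes have a median of 0.41, the other microtubule proteins 0.40, the ganglion cell factors 0.48 and the progenitor markers -0.79.

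Several genes from the lists of ganglion cell factors and effectors rose beside the members, and others did not. Of 18 ganglion cell transcription factors, 8 rose, 10 did not pass and none fell (median log2FC 0.48). Of all genes tested, 3.64% rose at this cutoff. *Tbr1*, 1 of the 10, had 25.2 to 103 normalized counts in CKO retinas and 5.06 to 10.4 in control retinas. It passed the filter on low counts only through CKO samples, so that a rise was close to given for it. Among the 8 were *Isl1* (0.50), a LIM-homeodomain factor, *Ebf3* (0.84) and *Pou4f2* (0.46), a POU factor that ganglion cells need for their axons. At an edgeR adjusted p below 0.05, 11 rose, *Tbr1* among them, and 2 fell, *Dlx2* (-0.33) and *Atoh7* (-0.24). Of all 13891 genes tested, 2207 (15.9%) rose and 2412 fell at this cutoff. The study describes *Atoh7* as transiently expressed in progenitors and as a competence factor for ganglion cells. Of 10 other ganglion cell effector genes 4 rose and 6 did not pass (median 0.43). Among the 4 were the glutamate transporter gene *Slc17a6* (0.61) and the RNA-binding protein gene *Elavl2* (0.85), and among the 6 were *Shh* (0.21) and *Chrna6* (-0.18). Set against *Pou4f2* in each sample, 9 of the 10 members overlapped between the genotypes, and *Sncg*, at 2.28 to 2.67 per *Pou4f2* count in CKO retinas and 2.75 to 4.09 in control retinas, was lower in every CKO sample. Set against *Isl1*, 7 overlapped, and *Ina*, *Stmn2* and *Sncg* were lower in every CKO sample. Of all genes tested, 64.4% were lower in every CKO sample per *Pou4f2* count and 68.8% per *Isl1* count. These ratios are given with no test.

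Neurofilament and axon genes are also made by neurons outside the retina and by other retinal neurons. For the counts that follow, 3.64% of all genes tested rose and 4.97% fell by edgeR at the same cutoff. Of 8 photoreceptor precursor markers tested none passed (median 0.07), and of 10 amacrine and horizontal cell markers 1, *Lhx1*, rose (median 0.12). Of the 8 listed markers of peripheral sensory and autonomic neurons, 3 were tested and none passed. The summed level of that list was 117 to 148 normalized counts in CKO retinas and 120 to 141 in control retinas, and *Phox2a*, which defines autonomic neurons, reached at most 1.09 in CKO retinas and 3.02 in control retinas. Of the 8 listed hypothalamic and diencephalic markers 4 were tested, and all 4 rose. However, *Otp*, *Sim1* and *Barhl1* passed the filter on low counts only through CKO samples. They had at most 5.03, 1.04 and 8.06 normalized counts in control retinas, so that a rise was close to given for them. With 1 sample left out, between 2 (without control replicate 2 or control replicate 4) and 4 rose. The summed level of the list was 359 to 583 normalized counts in CKO retinas and 118 to 137 in control retinas, where *Lhx9* made up 105 to 116. *Otp* had 203, 74.1, 82.0 and 115 normalized counts in CKO replicates 1 to 4, against 5.03, 2.08, 1.14 and 0 in control replicates 1 to 4. CKO replicate 1 was also highest in *Nefl* but lowest of its group in *Gap43*, *Tubb3*, *Sncg* and *Thy1*. Markers of retinal pigment epithelium, endothelium, periocular mesenchyme and optic stalk fell in 1 of 5, 2 of 5, 1 of 2 and 1 of 5 genes tested, and blood and macrophage markers passed in none of 6 and 6. The endothelial genes that fell were *Kdr* (-0.48) and *Cldn5* (-1.55), whereas *Pecam1* (0.05), *Cdh5* (0.09) and *Esam* (-0.03) did not pass. *Kdr* had 2479 to 4272 normalized counts, and no other listed endothelial marker exceeded 202. Of the mesenchyme genes *Col1a2* fell (-1.98) and *Col1a1* did not (-0.01). Of the 7 listed lens markers 2 were tested and neither passed, with a summed level of the list of 62.9 to 137 normalized counts in CKO retinas and 45.6 to 71.5 in control retinas. The lens gene *Cryba1* had 58.0, 21.5, 25.2 and 53.4 normalized counts in CKO replicates 1 to 4, against 12.1, 3.12, 3.43 and 3.04 in control replicates 1 to 4 (log2FC 2.83, edgeR adjusted p = 0.0013). *Cryba1* passed the filter on low counts only through CKO samples. Its groups did not overlap, and every CKO sample lay above every control sample in 15.9% of all genes tested. In other fits 1 lens marker passed: with DESeq2, with no filter, with embryo sex as a covariate, with the replicate block and with the exonic length correction. The part of these other cell types in the levels of the 10 genes was not tested.

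The genes whose pattern over the 8 samples was most like each member were found by the root mean square difference of log2 normalized counts, centred on their mean. *Basp1* was nearest to *Gap43*, at 0.0174, the closest match of any member, and *Gprin1*, another growth cone gene, came after it (0.0304). *Crmp1*, a collapsin response gene, was nearest to *Ina* (0.0227), *Dbndd1* to *Mapt* (0.0323) and *Jup* to *Tubb3* (0.0279). *Asic1* and *Pou4f2* were nearest to *Nefm* (0.0426 and 0.0648), and *Prmt2* and *Rbpms*, a ganglion cell gene, to *Stmn2* (0.0263 and 0.0280). *Wscd2* was nearest to *Nefl* (0.0400), *Ndufb6* to *Sncg* (0.0379) and *Chn2* to *Nefh* (0.0961), and no gene came close to *Thy1* (*Gm10073*, 0.385). The 8 samples include both genotypes, so likeness covers the genotype difference as well as the deviations of single samples.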

How the data were processed

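The values used are counts of reads per gene as the authors deposited them, raw and not pooled, made from poly(A) libraries without strand (TruSeq V2, 50 cycle single end reads, HiSeq). The submitters' processing notes name TopHat2, Cufflinks, HTSeq and mm10; versions, the annotation release and the counting mode were not given in the sources used here. Depth was 13143587 to 19099937 counts per sample, and with 4 samples per group the spread between embryos limits precision. Of the 28432 gene IDs, 28232 were found in GENCODE M21 (GRCm38), which gave positions and exonic lengths.

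Genes with at least 20 normalized counts (median-of-ratios) in at least 3 samples were tested with edgeR 4.0.16 in R 4.3.3, on TMM-scaled counts with a model of genotype alone and Benjamini-Hochberg adjustment, and a gene was called at an adjusted p below 0.001. SE was obtained by dividing each log2FC by the root of its F value. The members and the gene lists were chosen with earlier results of these data known, and the lists were written from general knowledge. Named genes were every member, up to 5 per list with the smallest p-values, the partners in ratios, the 2 genes nearest in pattern to each member (mean of at least 50 normalized counts), overlapping genes and *Lhx2*, *Xist* and Y-linked genes. *Phox2a*, *Dlx2*, *Atoh7*, *Tbr1*, *Shh* and *Chrna6* were named after their values were seen. Some genes that this rule takes are not reported here. Alternatives were DESeq2 1.42.0, limma voom (limma 3.58.1), median-of-ratios or library totals for scaling, no filter or filterByExpr, an adjusted p below 0.05, the replicate number as a block, embryo sex as a covariate, each sample left out in turn and, added after seeing the data, control replicate 3 and CKO replicate 1 left out together and a correction for exonic length (a loess curve on length of each sample's log2 deviation from the mean of all 8 samples, entered as offsets, which also removes any genotype difference tied to length). Figures were drawn with matplotlib 3.10.9 under Python 3.11.15, and coding sequences were aligned with Biopython 1.88.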

Additional observations from a re-analysis of the deposited data

How the results depend on the processing

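The count of members that rose (3) was 7 with DESeq2, 5 with limma voom, 5 with no filter on low counts, 8 at an adjusted p below 0.05, 6 with the exonic length correction and 7 without both control replicate 3 and CKO replicate 1. Leaving out 1 sample gave between 0 and 6 members. Over all genes the count of calls (1196) was 2390 with DESeq2, 2055 with no filter, 4619 at an adjusted p below 0.05 and 2104 without those 2 samples, and between 686 and 1553 with 1 sample left out. The direction of the log2FC was kept in 19 of 19 alternatives by every member except *Sncg*, whose log2FC (-0.01) was 0.0076 without CKO replicate 1, 0.075 without control replicate 3, 0.00058 without control replicate 4, 0.10 without both control replicate 3 and CKO replicate 1 and 0.070 with the exonic length correction, and -0.077 to 0.075 over the fits with 1 sample left out. On the log2 scale the *Nefh*/*Nefl* ratio differed by -0.066 to 0.14 and *Ina*/*Nefl* by -0.085 to 0.032 when 1 sample was left out, at adjusted exact permutation p of 0.51 or more: *Nefh*/*Nefl* was -0.066 without control replicate 1 and -0.023 on omitting CKO replicate 3, and *Ina*/*Nefl* was 0.0055 without control replicate 2 and 0.032 on omitting CKO replicate 1. The cause of these shifts was not tested.

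The replicate numbers did not pair the samples, since the correlations between same-numbered samples were 0.142, -0.154, 0.0633 and -0.116 and only 3 of 8 samples correlated best with their own number; with the replicate number as a block, 1 member (*Nefm*) rose, where 1.96% of all genes did, and 676 genes passed in either direction. *Nefh* and *Thy1* had at most 127 reads in a sample; with 35 to 76 reads *Nefh* had an SE of 0.17, and with 32 to 127 reads *Thy1* had an SE of 0.40.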
